A study of Mus musculus with 12 samples.

Results

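Ppp1r3c encodes a glycogen-targeting subunit of protein phosphatase 1, and it was examined here with 8 further genes of glycogen metabolism in sorted cells of the newborn mouse testis. The 9 genes (Ppp1r3c, Ppp1r3b, Gys1, Gyg, Gbe1, Pygl, Pygm, Pygb and Ugp2) were taken by their symbols from a table of 54532 genes, and all 9 had enough counts to be tested in every comparison. Ppp1r3c was chosen by its higher level in somatic cells after dexamethasone, and the other 8 were added for their place in the pathway. For the 9 genes, values from dexamethasone against saline in somatic cells, and from the difference of the dexamethasone effects between populations, are therefore given as descriptions without p-values, as are all somatic comparisons of Ppp1r3c.

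Bulk RNA-seq was performed on 12 libraries from testes at postnatal day 1 (PN1) of mice carrying Tg(Pou5f1-EGFP)2Mnn, a transgene whose Pou5f1 (OCT4) promoter drives GFP. GFP-positive cells were sorted as germ cells, and GFP-negative cells formed a mixed somatic fraction. Dexamethasone (dex), a synthetic glucocorticoid that binds the glucocorticoid receptor, or saline was given to pregnant dams by intraperitoneal injection at embryonic days E17.5 and E18.5 and to pups under the skin at PN0. The dex dose was 10 µg per g body weight each time. The 4 groups of 3 libraries were saline germ, dex germ, saline somatic and dex somatic, every group carried the transgene, and each replicate pooled testes from at least 2 litters dosed independently.

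Glycogen is a branched polymer in which cells store glucose. UDP-glucose made by Ugp2 is the building block, glycogenin (Gyg) starts a chain, glycogen synthase (Gys1) lengthens it and the branching enzyme (Gbe1) adds branches. The phosphorylases Pygl, Pygm and Pygb, named for liver, muscle and brain, release glucose 1-phosphate from the polymer. Targeting subunits such as Ppp1r3c and Ppp1r3b bring protein phosphatase 1 to the glycogen particle, where removal of phosphate activates the synthase and inactivates phosphorylase. Glucocorticoids take their name from their effect on glucose and are known to favour glycogen storage in liver.

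Library totals lay between 18459692 and 25178477 counts, so that 3 counts, the most that a count of 0 allows, corresponded to 0.111 to 0.170 CPM (counts scaled to a common library size by TMM). This limit covers counting error only. The sort was checked on markers. Ddx4, Dazl and Pou5f1, genes of germ cells, were 433, 829 and 435 times as high in saline germ as in saline somatic cells, whereas the Sertoli cell genes Amh and Sox9 in germ cells stood at 0.677% and 3.62% of their somatic level. A list of 7 Sertoli markers summed to between 4432 and 5173 CPM in somatic libraries, and the germ list of 7 genes to between 3.02 and 5.27 CPM there. In bulk samples of this kind, fewer cells of a type and less RNA per cell cannot be told apart.

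The promoter windows of Ppp1r3c and Pygm are shown because these were the members past the call rule in somatic cells given dex. Both run from 250 bases before to 50 bases after the annotated start, were taken from RefSeq on GRCm38.p6 and read 5′ to 3′ on the strand of the gene. Capitals mark the E-box letters CACGTG and CAGCTG. The Ppp1r3c window is chr19:36736555-36736854 on the minus strand and the Pygm window is chr19:6384158-6384457 on the plus strand.
Ppp1r3c: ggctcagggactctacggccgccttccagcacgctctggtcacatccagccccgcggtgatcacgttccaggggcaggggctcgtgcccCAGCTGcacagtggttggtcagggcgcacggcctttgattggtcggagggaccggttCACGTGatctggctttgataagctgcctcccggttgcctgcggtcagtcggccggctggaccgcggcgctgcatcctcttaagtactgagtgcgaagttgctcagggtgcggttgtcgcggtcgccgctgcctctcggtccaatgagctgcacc
Pygm: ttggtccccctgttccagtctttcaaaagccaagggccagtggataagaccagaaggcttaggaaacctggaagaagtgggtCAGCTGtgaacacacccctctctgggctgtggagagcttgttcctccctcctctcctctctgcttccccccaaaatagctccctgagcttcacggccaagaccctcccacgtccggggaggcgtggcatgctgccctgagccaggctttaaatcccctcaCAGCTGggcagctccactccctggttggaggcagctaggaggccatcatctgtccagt

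The Ppp1r3c window held CAGCTG with its first base at position -161 and CACGTG at position -104 from the start, and the Pygm window held CAGCTG at -168 and -8. Among the 8 members with a window in RefSeq (9 windows in all, none for Ppp1r3b), CACGTG was found in Ppp1r3c and Gyg, and 7.15% of all 32851 promoter windows contained it. CAGCTG was found in Ppp1r3c, Pygm, Gys1 and Ugp2, against 16.3% of all windows. The half-site letters of the glucocorticoid receptor, AGAACA on either strand, were in 0 of the 9 windows and in 19.0% of all windows. The full palindrome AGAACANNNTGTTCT was in 0 of the 9 and in 3 of all windows, and the cAMP element TGACGTCA was in 0 of the 9 and in 1.79% of all windows. The half-site letters lie within the full palindrome. These matches describe the letters of the windows and nothing was measured at them.

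Ppp1r3c, of which the protein is also called protein targeting to glycogen, lies at chr19:36731737-36736653 on the minus strand (mm10, ENSMUSG00000067279). Its normalised level was 2.23, 3.60 and 2.43 CPM in saline somatic cells and 14.2, 15.1 and 15.7 CPM in dex somatic cells. It was 9.50, 10.1 and 9.10 CPM in saline germ cells and 14.0, 12.1 and 14.8 CPM in dex germ cells. The saline somatic libraries thus lay below all others, the saline germ libraries came next, and the dex libraries of both populations were the highest and overlapped each other. The means were 2.75 ± 0.740 in saline somatic, 9.55 ± 0.480 in saline germ, 13.6 ± 1.41 in dex germ and 15.0 ± 0.787 CPM in dex somatic cells (SD, n = 3). Dex somatic cells held 5.44 times the level of saline somatic cells, a log2 fold change of 2.47 ± 0.23 (SE), which is the value that chose the gene. In germ cells the level in dex was 1.43 times that in saline, a log2 fold change of 0.50 ± 0.16 (95% interval 0.17 to 0.84). The 3 dex germ libraries lay above the 3 saline germ libraries, but the change did not pass the test over all genes (edgeR quasi-likelihood test, adjusted p = 0.140).

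**Figure D1:**
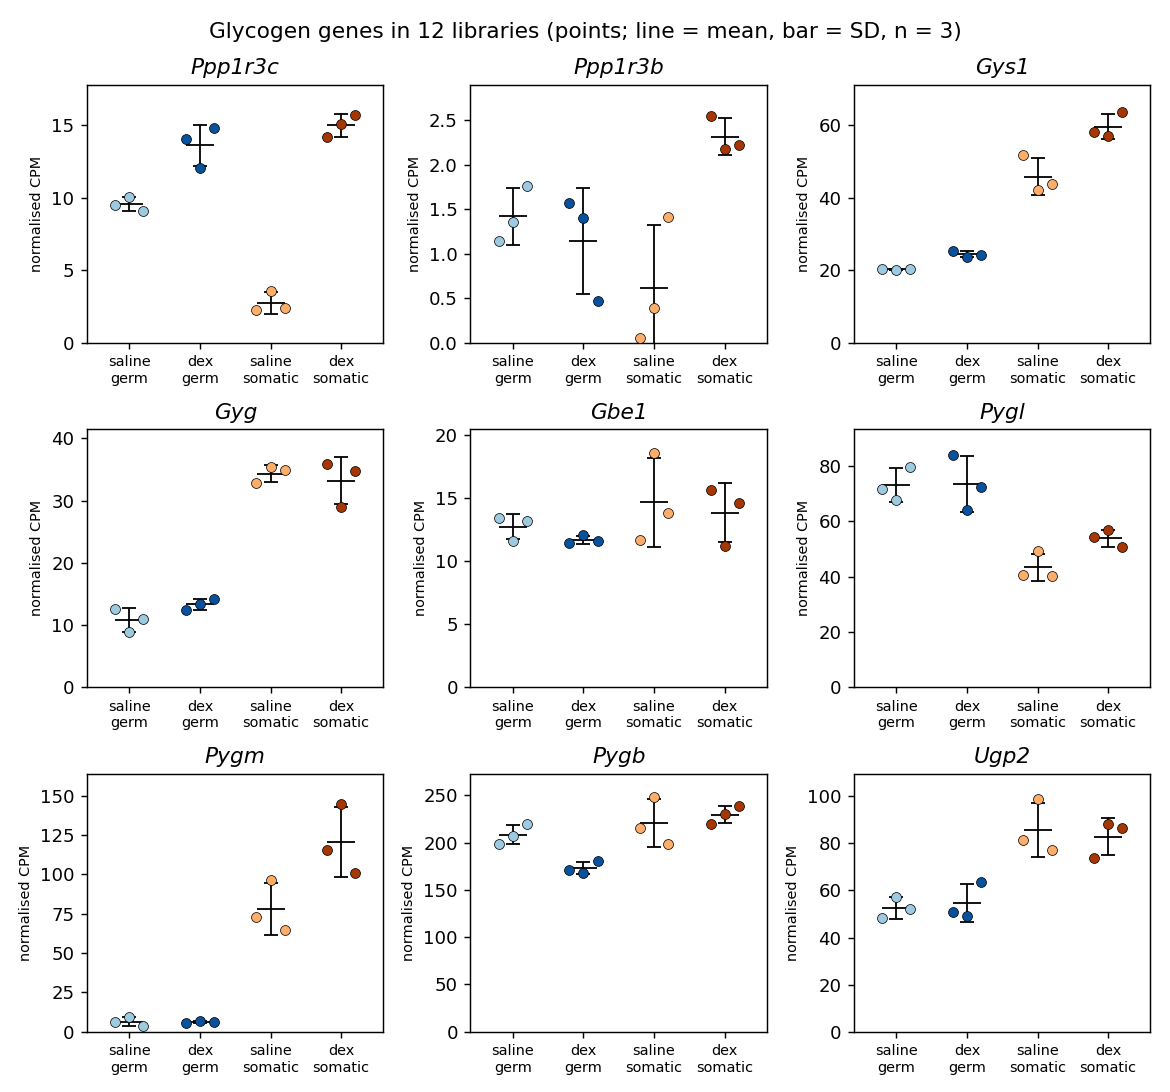
Normalised CPM (y axis, linear, each panel with its own scale) of the 9 glycogen genes in the 4 groups (x axis). Points are single libraries, horizontal lines the mean and bars the SD of 3 libraries, and the SD bar of Ppp1r3b in saline somatic cells is cut at 0. Ppp1r3c was lowest in saline somatic cells (2.75 CPM) and highest in dex somatic cells (15.0 CPM), Pygm was near the axis in germ cells, and Gyg was higher in every somatic than in any germ library.

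Germ and somatic cells are compared for Ppp1r3c as a description, since the somatic libraries of both treatments chose the gene. In saline the level in germ cells was 3.47 times that in somatic cells, a log2 difference of 1.78 ± 0.25, and the libraries did not overlap. In dex the log2 difference was -0.14 ± 0.17, with a 95% interval of -0.51 to 0.22, and its sign turned to 0.039 when libraries were scaled by their totals. For the other members too, these comparisons use the libraries of the dex comparisons and are not independent of them. The dex effect on Ppp1r3c in germ cells minus that in somatic cells was -1.92 ± 0.28 on the log2 scale (95% interval -2.51 to -1.34). This difference includes the somatic contrast that chose the gene, so its interval is no test.

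Ppp1r3b, the targeting subunit best known from liver (chr8:35375739-35388139), had the lowest FPKM (counts scaled by depth and gene length) of the 9 genes in each group. It was at 0.0507, 0.395 and 1.41 CPM in saline somatic cells, from 1, 9 and 29 counts, and at 2.55, 2.18 and 2.22 CPM in dex somatic cells. It was at 1.14, 1.35 and 1.76 CPM in saline germ cells and 1.57, 1.41 and 0.465 CPM in dex germ cells. All dex somatic libraries lay above all saline somatic libraries, while the germ groups overlapped. The log2 fold change in somatic cells was 1.91 ± 0.76, and it was 3.36 without saline somatic replicate 3, the library with 29 counts. In germ cells it was -0.30 ± 0.46 (adjusted p = 0.821). Between populations the log2 difference in saline was 1.19 ± 0.76 (adjusted p = 0.173), which passed the test at 2.59 (adjusted p = 0.00955) without saline somatic replicate 3, and in dex it was -1.01 ± 0.50 (adjusted p = 0.0861). The dex effect in germ minus that in somatic cells was -2.19 ± 0.96, and it was -3.59 without saline somatic replicate 3. On the log2(FPKM + 1) scale, which shrinks the changes of low genes, the somatic log2 fold change of Ppp1r3b was 0.32 and the difference of effects was -0.37.

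Of the genes of glycogen synthesis, Gys1, Gyg and Ugp2 were lower in germ than in somatic cells under both treatments, and Gbe1 passed no test. Gys1, the synthase found in most tissues outside liver (chr7:45434844-45456619), was at 51.7, 42.1 and 43.8 CPM in saline somatic and 58.2, 57.1 and 63.7 CPM in dex somatic cells. In germ cells it was at 20.3, 20.0 and 20.4 CPM in saline and 25.4, 23.6 and 24.3 CPM in dex. In both populations the dex libraries lay above the saline libraries, with log2 fold changes of 0.41 ± 0.12 in somatic cells and 0.26 ± 0.12 in germ cells. Neither was past the call rule, and the adjusted p in germ cells was 0.315. Germ cells were below somatic cells by log2 differences of -1.18 ± 0.12 in saline (adjusted p = 2.38e-06) and -1.29 ± 0.11 in dex (adjusted p = 2.98e-07). Ruvbl2 overlaps Gys1 on the opposite strand and held 202% as many counts, and 4.90% of the 64-base words of Gys1 transcripts also occur in other genes. The strand setting of the counting is not given in the sources used here, so reads in the overlap may have been lost or shared.

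Gyg, the primer of the chain, was at 32.8, 35.3 and 35.0 CPM in saline somatic and 35.9, 28.9 and 34.8 CPM in dex somatic cells. In germ cells it was at 12.7, 8.86 and 11.1 CPM in saline and 12.5, 13.4 and 14.1 CPM in dex. The germ libraries all lay below the somatic libraries, and within each population the treatments overlapped. The log2 difference of germ from somatic cells was -1.66 ± 0.15 in saline (adjusted p = 8.86e-07) and -1.32 ± 0.15 in dex (adjusted p = 3.96e-06). The log2 fold change with dex was -0.021 ± 0.12 in somatic cells and 0.29 ± 0.17 in germ cells (adjusted p = 0.460).

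Ugp2, which makes UDP-glucose, was likewise lower in germ cells, at 48.3 to 57.2 CPM in saline and 49.1 to 63.8 CPM in dex, than in somatic cells, at 77.0 to 98.8 CPM in saline and 73.9 to 88.4 CPM in dex. The log2 difference of germ from somatic cells was -0.71 ± 0.11 in saline (adjusted p = 0.000109) and -0.61 ± 0.12 in dex (adjusted p = 0.000515). Its dex effects were -0.016 ± 0.10 in somatic cells and 0.048 ± 0.11 in germ cells (adjusted p = 0.895). Gbe1, the branching enzyme, was at 11.6 to 13.4 CPM in saline germ, 11.4 to 12.1 CPM in dex germ, 11.7 to 18.6 CPM in saline somatic and 11.2 to 15.7 CPM in dex somatic cells. The groups of Gbe1 overlapped in every comparison. No Gbe1 difference passed a test between populations (adjusted p = 0.341 in saline and 0.245 in dex) or between treatments in germ cells, where its log2 fold change was -0.13 ± 0.15 (adjusted p = 0.747). In somatic cells its log2 fold change was -0.054 ± 0.19.

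Of the 9 genes, the phosphorylase Pygm had the largest log2 difference between the populations, in saline and in dex. Pygm, the muscle isoform (chr19:6384399-6398459, plus strand), was at 6.44, 9.38 and 3.72 CPM in saline germ and 5.35, 6.69 and 6.42 CPM in dex germ cells. It was at 73.2, 96.6 and 64.7 CPM in saline somatic and 116, 145 and 101 CPM in dex somatic cells. Every somatic library lay above every germ library, and the dex somatic libraries lay above the saline somatic libraries. The level in saline somatic cells was 12 times that in saline germ cells, a log2 difference of germ from somatic of -3.59 ± 0.27 (adjusted p = 1.10e-07), and in dex the difference was -4.29 ± 0.16 (adjusted p = 1.62e-10). The dex level in somatic cells was 1.54 times the saline level, a log2 fold change of 0.66 ± 0.13. In germ cells the log2 fold change was -0.084 ± 0.28 (adjusted p = 0.928). The germ level of Pygm was 8.33% of the somatic level in saline and 5.11% in dex, while the shares of other genes and lists of somatic cells varied. They were 0.677% and 0.420% for Amh and 3.62% and 2.77% for Sox9. List shares were 0.824% and 0.840% for peritubular and smooth muscle, 1.27% and 0.892% for Sertoli and 1.62% and 1.19% for stromal markers. Shares of 2.79% and 3.30% were found for the erythroid, 6.29% and 5.40% for the Leydig and 11.3% and 27.3% for the macrophage list. Higher were the endothelial (22.4% and 20.9%), lymphocyte (58.1% and 124%) and skeletal muscle lists (462% and 486%). Genes within a list differed. Pecam1 was at 23.9 CPM in saline germ and 15.8 CPM in saline somatic cells, and Cdh5 at 22.0 and 220 CPM. How much of the germ level of Pygm came from somatic RNA was not tested.

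Pygl, the liver isoform, ran the other way between populations. It was at 71.7, 67.6 and 79.7 CPM in saline germ and 84.0, 64 and 72.4 CPM in dex germ cells. It was at 40.5, 49.1 and 40.4 CPM in saline somatic and 54.1, 56.7 and 50.6 CPM in dex somatic cells. Each germ library was above each somatic library, and the dex somatic libraries were above the saline somatic libraries. The log2 difference of germ from somatic cells was 0.75 ± 0.11 in saline (adjusted p = 5.93e-05) and 0.44 ± 0.11 in dex (adjusted p = 0.00343). The log2 fold change with dex was 0.34 ± 0.11 in somatic cells and 0.0019 ± 0.11 in germ cells (adjusted p = 0.996).

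Pygb, the brain isoform, had the highest FPKM of the 9 genes in each group. It was at 199, 207 and 220 CPM in saline germ and 171, 168 and 180 CPM in dex germ cells. It was at 215, 248 and 199 CPM in saline somatic and 220, 230 and 239 CPM in dex somatic cells. The dex germ libraries lay below all others. The log2 fold change with dex in germ cells was -0.27 ± 0.070 (95% interval -0.42 to -0.13), which did not pass the test with edgeR (adjusted p = 0.0724) and passed with DESeq2 (adjusted p = 0.0226). In somatic cells the log2 fold change was 0.088 ± 0.083, with overlapping libraries. In saline the populations overlapped, at a log2 difference of -0.087 ± 0.090 (adjusted p = 0.398) whose sign turned under other scalings, whereas in dex germ cells were lower by a log2 difference of -0.41 ± 0.074 (adjusted p = 0.000265).

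Levels of different genes were compared on FPKM, which corrects for gene length, and the phosphorylases were set against each other as shares of their summed FPKM. In saline germ cells Pygb made up 77.5% ± 0.677, Pygl 18.9% ± 1.18 and Pygm 3.64% ± 1.62 (SD, n = 3). In saline somatic cells the shares were 60.2% ± 1.78 for Pygb, 8.24% ± 0.400 for Pygl and 31.6% ± 2.04 for Pygm. Pygm was thus a minor isoform in germ cells and the second in somatic cells. In dex somatic cells its share was 40.2%, 44.5% and 35.5% in the 3 libraries, all above the 31%, 33.8% and 29.9% in saline somatic cells, and Pygb made up 51.5% ± 4.42. The share of Pygm in dex germ cells was 3.95% ± 0.565 and overlapped that in saline germ cells. The summed FPKM of the 3 genes was 57.0 in saline germ, 50.1 in dex germ, 71.6 in saline somatic and 89.2 in dex somatic cells.

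**Figure D2:**
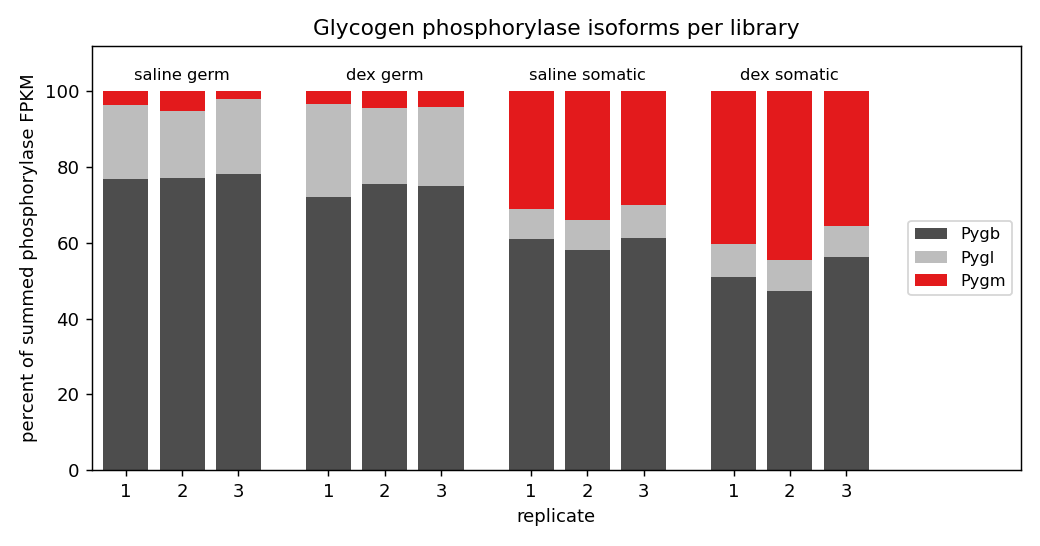
Share (y axis, percent) of Pygb, Pygl and Pygm in the summed FPKM of the 3 glycogen phosphorylases, one stacked bar per library (x axis, replicate within group). Pygm takes 3.64% on average in saline germ cells, 31.6% in saline somatic cells and 40.0% in dex somatic cells.

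On the FPKM scale the members kept a wide spread of levels. In saline germ cells Pygb was the highest at 44.2 ± 2.55, followed by Ugp2 at 17.4 ± 1.54 and Pygl at 10.8 ± 0.977. Gyg at 4.71 ± 0.814 and Gys1 at 4.30 ± 0.0707 came next and lay within their spread, above Ppp1r3c at 3.58 ± 0.169. Gbe1 at 2.42 ± 0.186 and Pygm at 2.06 ± 0.891 also lay within their spread, and Ppp1r3b was the lowest at 0.233 ± 0.0537. In saline somatic cells Pygb stood at 43.0 ± 3.75, Ugp2 at 26.1 ± 2.77 and Pygm at 22.7 ± 4.15, the last pair within their spread. Gyg followed at 13.7 ± 0.479, Gys1 at 8.99 ± 1.17, Pygl at 5.88 ± 0.511 and Gbe1 at 2.56 ± 0.548. There Ppp1r3c, at 0.945 ± 0.226 FPKM, was above only Ppp1r3b at 0.0939 ± 0.109, and in dex somatic cells it reached 5.28 ± 0.311 FPKM.

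Counted over the members, dex against saline in germ cells gave 0 of 9 calls at an adjusted p of 0.05 or less with edgeR, where 1.25% of all tested genes were called. At an unadjusted p under 0.05 there were 3 (Ppp1r3c, Gys1 and Pygb), where 2736 of the 18550 tested genes were under it. DESeq2 called 1 member (Pygb) and 711 of these genes, and limma called 0 members, with 6 genes called on log2(FPKM + 0.1) and 12 on log2(FPKM + 1). In 3 of 9 members the groups did not overlap, against 20.0% of all genes. The median log2 fold change of the members was 0.0019, beside -0.0027 over all genes. In somatic cells 2 of 9 members (Ppp1r3c and Pygm) were past the call rule, against 3.91% of all genes, and 5 of 9 (these and Ppp1r3b, Gys1 and Pygl) did not overlap, against 21.4% of all genes. The median was 0.34, beside -0.0066 over all genes. Since this contrast chose Ppp1r3c, nothing is read from these counts. The count of 2 fell to 1 without dex somatic replicate 2 or saline somatic replicate 3, where Pygm left the call. It stayed at 2 without saline somatic replicate 1, where Gys1 took the place of Pygm. For the difference of the dex effects, 1 of 9 (Ppp1r3c) was past the rule, where 0.827% of all genes were. That difference includes the somatic contrast that chose Ppp1r3c, so nothing is read from this count either.

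Between germ and somatic cells 6 of 9 members were called in saline, 2 higher in germ cells (Pygl, and Ppp1r3c, for which the call is a description) and 4 lower (Gys1, Gyg, Pygm and Ugp2). This is a share near the background, since 76.5% of all tested genes were called, and 6 of 9 did not overlap against 79.7% of all genes. In dex 6 of 9 were called, 1 higher (Pygl) and 5 lower (Gys1, Gyg, Pygm, Pygb and Ugp2), against 76.3% of all genes, and 7 of 9 did not overlap against 79.9% of all genes. The median log2 difference of all genes between populations depended on the scaling. It was 0.072 with TMM and 0.21 with library totals in saline, and 0.12 and 0.30 in dex. Of the members, Pygb in saline and Ppp1r3c in dex changed sign with the scaling, and neither was called.

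**Figure D3:**
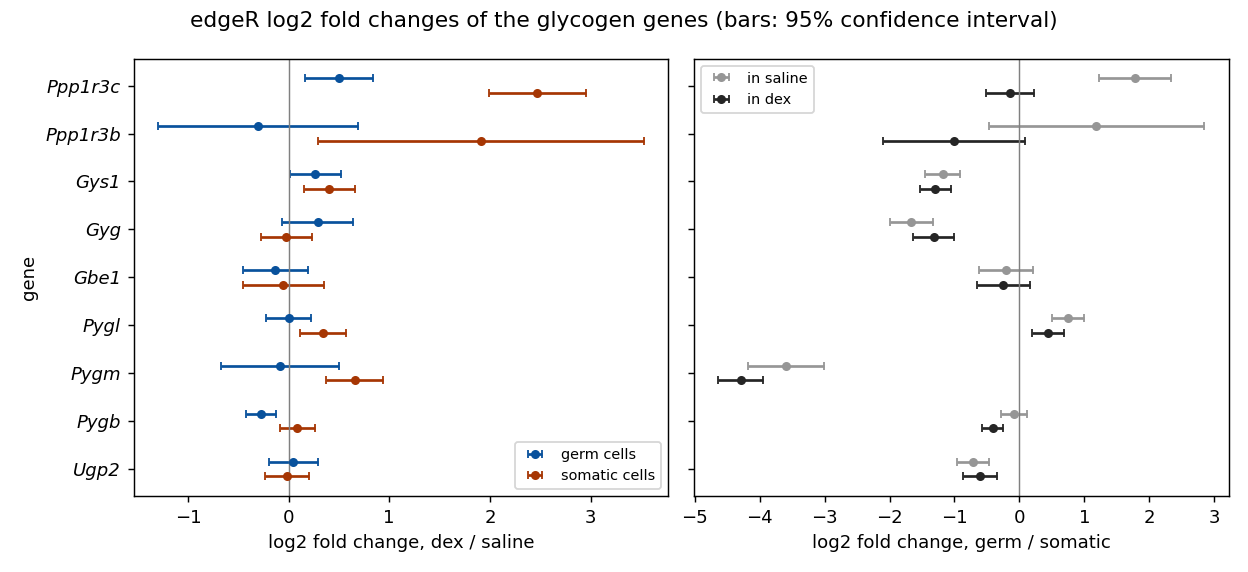
Log2 fold changes from edgeR (x axes) of the 9 glycogen genes (y axis), with 95% confidence intervals as bars. The left panel gives dex over saline in germ and somatic cells and the right panel germ over somatic cells in saline and in dex. Ppp1r3c lies at 2.47 in somatic and 0.50 in germ cells on the left, and moves from 1.78 in saline to -0.14 in dex on the right.

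The somatic fraction holds several cell types, and the summed levels of some of their marker lists did not overlap between treatments. A list of 4 stromal markers summed to between 1338 and 1868 CPM in saline somatic and between 2083 and 2523 CPM in dex somatic libraries, and 4 peritubular and smooth muscle markers to between 1119 and 1237 CPM in saline and between 1398 and 1590 CPM in dex, none at 0. The mean sums in dex were 1.44 and 1.28 times those in saline. Genes within these lists differed. Pdgfra and Dcn of the stromal list were higher in dex without overlap, while Lum and Tcf21 overlapped. Most of the peritubular and smooth muscle sum was Acta2, at 868 ± 18.2 CPM in saline and 1152 ± 69.3 CPM in dex without overlap. Myh11, Cnn1 and Tagln overlapped between treatments. The 4 macrophage markers summed to between 30.5 and 53.6 CPM in saline and between 13.2 and 16.9 CPM in dex, and 3 lymphocyte markers to between 1.98 and 3.40 CPM in saline and between 0.659 and 1.26 CPM in dex, while 4 erythroid markers overlapped, at 248 to 385 CPM in saline and 83.2 to 294 CPM in dex. The Sertoli list overlapped between treatments, at 4897 to 5138 CPM in saline and 4432 to 5173 CPM in dex, as did the list of 5 Leydig markers, at 118 to 200 CPM in saline and 85.3 to 173 CPM in dex. Within the Leydig list Star was lower in dex without overlap, at 21.6 ± 3.50 against 35.4 ± 3.07 CPM, and the other genes overlapped. Within the Sertoli list Dhh and Wt1 were lower without overlap, and the others overlapped. The endothelial list overlapped, at 235 to 276 CPM in saline and 242 to 317 CPM in dex. There Pecam1 and Tek were lower in dex without overlap, while Cdh5 and Kdr overlapped. The part of these cell types in the somatic values of Ppp1r3c, Pygm, Gys1 and Pygl was not tested. The list of 5 skeletal muscle markers summed to between 4.11 and 7.77 CPM in saline somatic and between 4.21 and 8.67 CPM in dex somatic libraries, and 2 of its genes were at 0 in every dex somatic library. These genes, Myog and Myh3, had 31 and 28 counts in saline somatic replicate 2 and 0 in saline somatic replicates 1 and 3. In germ libraries the Sertoli list summed to between 57.4 and 68.6 CPM in saline and between 35.5 and 46.4 CPM in dex, and the Leydig list to between 8.76 and 11.6 CPM and between 4.65 and 8.62 CPM. The erythroid list summed there to between 7.38 and 8.98 CPM in saline and between 4.33 and 6.88 CPM in dex, and the skeletal muscle list to between 23.1 and 28.8 CPM and between 29.4 and 31.8 CPM. Most of the skeletal muscle sum was Myh3, at 21.4 CPM in saline germ and 26.2 CPM in dex germ cells. The libraries of Acta1, Ckm, Myog and Tnnt3 overlapped between treatments, and the means of Acta1 and Myog were lower in dex. The part of the cell types of these lists in the germ values was not tested.

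Genes outside the 9 were taken from lists written with earlier results of these data known, and their p-values are adjusted over all genes. Of 24 other genes of glycogen metabolism, 23 were tested in germ cells with dex, and 1 was called higher and 0 lower. Of the 22 tested in somatic cells, 2 were called higher and 0 lower, where 1.25% and 3.91% of all genes were called. By sign alone, 14 were higher and 9 lower in germ cells, and 13 and 9 in somatic cells. Gaa, the lysosomal glucosidase that degrades glycogen, was called in both. It rose from 153.98 ± 4.89 to 193.9 ± 10.5 CPM in germ cells, with a log2 fold change of 0.33 ± 0.070 (adjusted p = 0.0396). In somatic cells Gaa rose from 195 ± 13.2 to 244 ± 25 CPM, and its log2 fold change was 0.35 ± 0.087 (adjusted p = 0.0328). The libraries of Gaa did not overlap between treatments in either population. Stbd1, a glycogen-binding protein linked to its transfer to the lysosome, was higher in dex than in saline somatic cells, at 29.4 ± 4.66 against 18.4 ± 2.43 CPM, and its log2 fold change was 0.71 ± 0.15 (adjusted p = 0.0148). These calls rest on few libraries. In germ cells the call of Gaa was lost in each fit without 1 library except that without saline germ replicate 3, at adjusted p values of up to 0.183. In somatic cells it was lost without dex somatic replicate 2 or 3 or saline somatic replicate 1 or 3 (up to 0.150), and that of Stbd1 without dex somatic replicate 2 or 3 or saline somatic replicate 3 (up to 0.0868).

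A list of 16 genes of glucose entry and release had 12 tested in germ cells with dex, of which 1 was called higher and 0 lower. In somatic cells 10 were tested, of which 1 was called higher and 0 lower, beside the same shares of all genes. By sign alone, 8 were higher and 4 lower in germ cells, and 4 and 6 in somatic cells. Slc2a1, the glucose transporter GLUT1, rose in germ cells, with 58.7 ± 2.86 CPM in dex against 41.2 ± 1.13 CPM in saline, and its log2 fold change was 0.50 ± 0.093 (adjusted p = 0.0170). The call was lost without dex germ replicate 3 or saline germ replicate 1 or 2 (up to 0.0905). In somatic cells Slc2a1 was at 43.8 ± 3.42 CPM in saline and 46.2 ± 4.95 CPM in dex, and its log2 fold change was 0.10 ± 0.12 (adjusted p = 0.749). The difference of the 2 effects, 0.43 ± 0.15, did not pass its own test (adjusted p = 0.206). Pdk4, a kinase that restrains the entry of pyruvate into the citric acid cycle, stood at 7.72 ± 0.995 CPM in saline somatic cells and rose to 14.9 ± 4.28 CPM in dex, and its log2 fold change was 0.98 ± 0.22 (adjusted p = 0.0172). The call was lost without dex somatic replicate 2 or saline somatic replicate 1 or 3 (up to 0.104). The median log2 fold changes of the glycogen list were 0.10 in germ and 0.019 in somatic cells, and those of the glucose list 0.13 and -0.023.

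**Figure D4:**
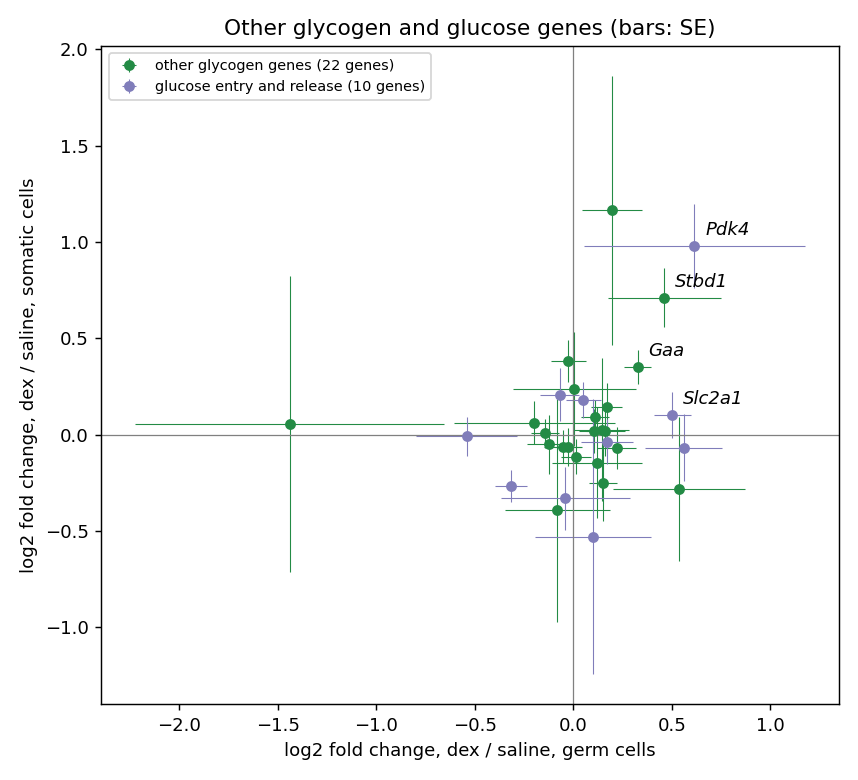
Log2 fold change of dex over saline in germ cells (x axis) and in somatic cells (y axis) for the 32 other glycogen and glucose genes tested in both populations, with the SE as bars. Most genes lie near 0 on both axes, the 4 called genes (Gaa, Stbd1, Slc2a1 and Pdk4) are named, and the points far out with long bars are genes with few counts.

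Between populations, 12 of 23 tested genes of the glycogen list were called higher and 6 called lower in germ cells in saline, and 13 and 5 of 22 in dex. These counts are near the background of 76.5% and 76.3% of all genes called. The phosphoglucomutase family split. Pgm2l1 was at 183 ± 11.3 CPM in saline germ and 11.4 ± 1.82 CPM in saline somatic cells, a log2 difference of 4.0 ± 0.12 (adjusted p = 4.11e-11), and Pgm1 at 1.51 ± 0.521 and 38.1 ± 2.82 CPM, a log2 difference of -4.67 ± 0.22 (adjusted p = 2.20e-09). In dex the differences were 4.44 ± 0.11 for Pgm2l1 and -4.89 ± 0.21 for Pgm1. Pgm2 was at 90.8 ± 6.02 CPM in saline germ and 42.6 ± 4.06 CPM in saline somatic cells. In dex it was at 89.6 ± 8.21 and 54.3 ± 2.75 CPM, and its germ libraries all lay above its somatic libraries. The symbols are those of the deposited annotation, where Pgm1 is ENSMUSG00000029171 on chromosome 5 and Pgm2 is ENSMUSG00000025791 on chromosome 4. Symbols of this family can differ between annotations, so these genes should be identified by the IDs. Which of them is the main phosphoglucomutase of glycogen metabolism was not examined. Ppp1r3d, a further targeting subunit, was higher in germ cells by 4.16 ± 0.46 in saline and 3.27 ± 0.34 in dex, as was Nhlrc1, the E3 ligase malin, by 2.33 ± 0.21 and 2.48 ± 0.27. Stbd1 was lower in germ cells by log2 differences of -1.41 ± 0.28 in saline and -1.62 ± 0.21 in dex, Gsk3a, a kinase of glycogen synthase, by -0.68 ± 0.090 in saline, and the targeting subunit Ppp1r3e by -1.61 ± 0.31 in dex. Gsk3a was lower in germ cells in dex too, at 50.3 ± 3.37 against 78.0 ± 2.03 CPM in somatic cells. Ppp1r3e was lower in saline too, at 1.98 ± 0.152 against 5.31 ± 1.98 CPM, and in neither case did the libraries overlap. All differences given here as log2 values passed the test in the comparison given.

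Of 12 tested genes of the glucose list, 4 were called higher and 5 called lower in germ cells in saline, and 5 and 5 in dex, beside the same background. Slc2a3, the transporter GLUT3, was higher in germ cells by a log2 difference of 1.64 ± 0.12 in saline and 1.4 ± 0.12 in dex. Slc2a1 was higher in dex by 0.34 ± 0.11 (adjusted p = 0.0129), a call lost without dex somatic replicate 3 (adjusted p = 0.0677). Pdk4, Pck2, the mitochondrial PEP carboxykinase, and Slc2a4, the transporter GLUT4, were lower in germ cells in saline by log2 differences of -3.87 ± 0.39, -3.67 ± 0.19 and -3.45 ± 0.22. In dex these differences were -4.20 ± 0.34, -4.17 ± 0.17 and -3.12 ± 0.24.

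Among 16038 protein-coding genes, those whose log2 CPM followed that of Ppp1r3c most closely over the 12 libraries were Igf2bp2 (Pearson r = 0.951), Thyn1 (0.950), Crispld2 (0.936), Blzf1 (0.907) and Egln3 (0.905). The 12 libraries fall into the 4 groups of the design, so these values describe the group pattern and carry no p-value. Egln3, an oxygen-sensing prolyl hydroxylase, was at 3.23 ± 1.27 CPM in saline somatic, 12.4 ± 0.973 CPM in dex somatic, 15.8 ± 1.90 CPM in saline germ and 23.0 ± 3.17 CPM in dex germ cells. Igf2bp2, an RNA-binding protein, was at 75.7 ± 6.11, 118 ± 9.92, 98.0 ± 0.917 and 119 ± 4.63 CPM in the same order. As for Ppp1r3c, the lowest mean of each was in saline somatic cells.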

How the data were processed

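RNA from 12 libraries of sorted cells was measured by poly-A selected, paired-end RNA-seq. Per the study's methods and the submitters' processing notes, the authors aligned reads to mm10 with HISAT2 2.0.5 and counted reads per gene with featureCounts 1.5.0-p3. The deposited count table holds raw counts. The authors also deposited FPKM, counts scaled by gene length and depth. The annotation release and strand setting are not given in the sources used here. The authors' tables of DESeq2 1.20.0 fold changes and p-values were not used.

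Groups came from the sample labels. Each comparison of 6 libraries was fitted with the edgeR quasi-likelihood test (R 4.3.3, edgeR 4.0.16) on raw counts, with TMM scaling and filterByExpr at a minimum count of 10, and the difference of dex effects over all 12 libraries. A gene is called at a Benjamini-Hochberg adjusted p, over all genes tested, of 0.05 or less. SE is the log2 fold change divided by the root of the F statistic, and intervals are 95%. CPM were scaled by TMM over 12 libraries. Alternatives were DESeq2 1.42.0, limma 3.58.1 on log2(FPKM + 0.1) and log2(FPKM + 1), RLE factors, library totals, other filters, a fit of all 12 libraries, a replicate block and leaving out each library. The scripts were tested on simulated data. The p-values measure the spread between pooled replicates.

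The members and lists were chosen with earlier results of these data known. Named were all members, list genes called with dex, and the 3 highest and 3 lowest called list genes between populations (mean log2 CPM 2 or more). The 5 genes most like Ppp1r3c, the sort markers, Pgm2 and some single list markers were named too. Promoter letters came from RefSeq tables on GRCm38.p6, and coordinates are those of the deposited tables.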

Additional observations from a re-analysis of the deposited data

Results flagged for a closer look

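The estimated dex effect on Ppp1r3c was smaller in germ than in somatic cells, where the gene was chosen. The effect in germ cells minus that in somatic cells was -1.92 ± 0.28 on the log2 scale over the 12 libraries, from a log2 fold change of 0.50 in germ cells and 2.47 in somatic cells. Leaving out 1 library at a time gave values between -2.16 and -1.83. The somatic contrast chose the gene, so the value is a description.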

How the results depend on the processing

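The pairing of replicate numbers across groups was not borne out, since no comparison had every same-numbered pair deviate together at a correlation over 0.1, so the replicate block was an alternative only. It moved Pygl in germ cells with dex to -0.0027, ended the germ calls of Gaa (adjusted p = 0.121) and Slc2a1 (adjusted p = 0.0705), and changed no member's call. In the population comparison in saline each library deviated most with the library of its own number, a hint from the data and not from the design. Of 1105 values of single genes under the alternatives, 1026 kept their direction and side of the threshold, 42 lost the call, 7 gained one and 30 changed sign. The count of called members with dex in germ cells was 1 with DESeq2 and 1 with no count filter. In somatic cells it was 3, with Gys1 added, with DESeq2 and with no count filter, 1 with limma on either FPKM scale and 1 with all 12 libraries fitted together, and it lay between 1 and 2 with 1 library left out. For the difference of dex effects it was 2 with no count filter. In the population comparisons it was 6 under each alternative except that it was 7 in saline without saline somatic replicate 3. Among members that were not called, Pygm in germ cells with dex was 0.023 with log2(FPKM + 0.1). Between populations in saline, Pygb was 0.010 with DESeq2 and 0.010 with RLE factors, 0.052 with library totals, and 0.041 and 0.040 with log2(FPKM + 0.1) and log2(FPKM + 1). Between populations in dex, Ppp1r3c was 0.039 with library totals, and the difference of dex effects of Gbe1 was 0.0037 with library totals. With 1 library left out, the log2 fold change with dex in germ cells ranged from -0.11 to 0.093 for Pygl, from -0.37 to 0.27 for Pygm, from -0.58 to 0.059 for Ppp1r3b and from -0.078 to 0.12 for Ugp2. In somatic cells it ranged from -0.073 to 0.067 for Ugp2, from -0.072 to 0.070 for Gyg and from -0.18 to 0.12 for Gbe1. Between populations in saline it ranged from -0.16 to 0.0045 for Pygb, and the difference of dex effects from -0.044 to 0.18 for Ugp2 and from -0.23 to 0.073 for Gbe1. With dex in somatic cells the call of Gaa was also lost with library totals, and the calls of Gaa, Stbd1 and Pdk4 were lost with limma on FPKM and with all 12 libraries. In germ cells those of Gaa and Slc2a1 were lost with limma on FPKM, and that of Gaa also with all 12 libraries. The cause was not tested. Depth limits Ppp1r3b most, whose saline somatic libraries held between 1 and 29 counts.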
